A study of Mus musculus with 2 samples.

Results

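A set of 10 genes of brown fat and of fat cells in general was followed in the ventral prostate of mice with a miR-32 transgene, namely Ucp1, Cidea, Ppargc1a, Elovl3, Cox8b, Cox7a1, Fabp3, Adipoq, Plin1 and Fabp4. They were chosen by name with the transgenic over wild-type ratios of these same arrays already known, so their ratios are given as a description and support nothing further. The array carries 13 probes for the 10 genes, and 12 probes of 9 genes were detected, of 13933 detected genes in all. Elovl3 was the gene without a detected probe. Detection of a probe required Feature Extraction's mark for a signal well above background, on both arrays, in at least 1 pool.

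The tested mice were of the ARR2PB-miR32 transgenic genotype, in which a composite probasin promoter, active in prostate epithelium under androgen control, drives miR-32. Wild-type mice of the same age, 6 months, were the controls. The labels spell the strain both FVB/N and FBV/N, give no founder line, and name the tissue as ventral prostate, although their growth text also mentions dorsolateral lobes. RNA of 6 transgenic mice formed 1 pool and RNA of 6 wild-type mice formed the other, and the same pair of pools was hybridised to 2 two-colour arrays with the dyes swapped. Each genotype therefore has 1 replicate and no difference has a replicate check. The SD given with a mean ratio is that of the 2 technical arrays (n = 2) and leaves out the spread between mice. How much each mouse added to its pool cannot be told apart. The transgenic pool was in Cy3 on array 1, where 29736 spots were well above background in its channel, and in Cy5 on array 2, where 17185 were. The wild-type pool had 18606 such spots on array 1 in Cy5 and 30718 on array 2 in Cy3, so each pool had fewer such spots on the array where it was in Cy5.

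Brown fat cells burn fatty acids to make heat. Ucp1 lets protons flow back across the inner mitochondrial membrane without making ATP, and noradrenaline raises its expression through cyclic AMP and the coactivator encoded by Ppargc1a. Cox8b and Cox7a1 encode cytochrome c oxidase subunits, and Fabp3 a fatty acid carrier, that brown fat shares with heart and skeletal muscle. Adipoq, Plin1 and Fabp4 are expressed by fat cells of any colour, and white fat depots surround the mouse prostate.

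The sequences shown are the mature miR-32 that the transgene is named for, with its seed (bases 2 to 8) in capitals, and the 250 bases before the annotated start of 3 genes whose ratios were high on both arrays. They are RefSeq sequences on GRCm38.p6, written 5′ to 3′ on the strand of the gene. The miRNA lies at chr4:56895272-56895293 on the minus strand. The Ucp1 stretch lies at chr8:83290098-83290347 on the plus strand, that of Fabp3 at chr4:130308488-130308737 on the plus strand, and that of Cox8b at chr7:140900447-140900696 on the minus strand. Capitals in these mark TGACG, the core of the cyclic AMP response element, and AGGTCA, the half-site that nuclear receptors bind.
mmu-miR-32-5p: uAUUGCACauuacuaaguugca
Ucp1: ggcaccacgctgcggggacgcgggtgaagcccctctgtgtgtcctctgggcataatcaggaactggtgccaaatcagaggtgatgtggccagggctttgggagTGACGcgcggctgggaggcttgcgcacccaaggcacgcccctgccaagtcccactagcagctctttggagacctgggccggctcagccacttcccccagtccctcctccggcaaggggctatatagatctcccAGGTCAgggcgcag
Fabp3: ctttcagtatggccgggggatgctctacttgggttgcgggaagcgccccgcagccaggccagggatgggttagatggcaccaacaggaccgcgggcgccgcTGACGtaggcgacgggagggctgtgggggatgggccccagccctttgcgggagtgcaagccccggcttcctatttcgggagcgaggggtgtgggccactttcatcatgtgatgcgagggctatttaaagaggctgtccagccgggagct
Cox8b: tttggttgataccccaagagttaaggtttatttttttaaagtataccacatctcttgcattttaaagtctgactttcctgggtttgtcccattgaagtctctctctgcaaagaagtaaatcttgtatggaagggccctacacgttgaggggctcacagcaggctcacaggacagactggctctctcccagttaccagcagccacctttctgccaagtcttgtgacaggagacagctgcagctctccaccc

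Promoters were available for 7 of the 10 genes, the exceptions being Cidea, Elovl3 and Fabp4. TGACG or its reverse complement CGTCA stood in 3 of these 7, Ucp1 at 147, Fabp3 at 149 and Ppargc1a at 49 bases before the start, and in 17.8% of 32851 promoters of the same length. AGGTCA or its reverse complement TGACCT stood in 1 of the 7, Ucp1 at 14 bases before the start, and in 14.0% of all promoters. Neither string was in the Cox8b stretch. These are matches of letters, and no binding was measured.

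Of the 9 detected genes, 5 were higher in the transgenic pool, namely Ucp1, Cidea, Cox8b, Cox7a1 and Fabp3, and none was lower. The rule for a call asked for a mean log2 ratio of transgenic over wild type of 1 or more in size, with each array alone reaching 1.5-fold in that direction. By that rule 1.09% of all detected genes were higher and 3.52% were lower, and since the 10 genes were chosen on this contrast nothing is read from the count. Ppargc1a, Adipoq, Plin1 and Fabp4 did not meet the rule. The median ratio of all detected genes was 0.01, with 24.7% above 0 and 27.3% below 0 on both arrays.

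**Figure D1:**
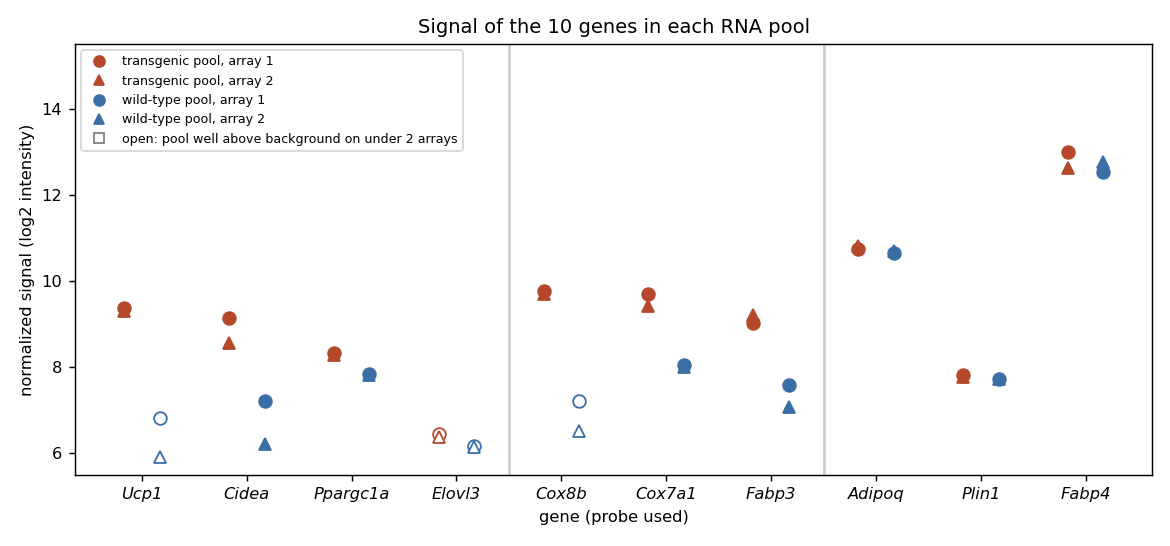
Normalized log2 intensity of the probe used for each of the 10 genes, with the transgenic pool (red) left of the wild-type pool (blue), array 1 as circles and array 2 as triangles. Open symbols mark a pool that was well above background on fewer than 2 arrays, and heights are not comparable between genes, since each is a different probe. For each of the 10 genes except Fabp4 both transgenic values lie above both wild-type values, by little for Adipoq and Plin1. A lack of overlap therefore does not set Ucp1, Cidea, Cox8b, Cox7a1 and Fabp3 apart.

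Ucp1 carried the highest ratio of the 10 genes. Its normalized log2 signal was 9.37 on array 1 and 9.29 on array 2 in the transgenic pool, against 6.82 and 5.91 in the wild-type pool. The transgenic pool was thus high with either dye. The log2 ratio was 2.55 on array 1 and 3.38 on array 2, a mean of 2.96 ± 0.59 or 7.80-fold, which placed Ucp1 at rank 10 among the 13933 detected genes. The wild-type pool was near background. On the scanner's own scale the spot stood 789 units (array 1) and 380 units (array 2) over its local background in the transgenic pool, against 9.5 and 30.0 units in the wild-type pool. Feature Extraction called the wild-type spot well above background on 1 of the 2 arrays, so the fold depends on how background is treated: with Feature Extraction's processed signals the mean ratio was 5.62, or 49.0-fold.

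Cidea encodes a lipid droplet protein that is abundant in brown fat. It gave a log2 signal of 9.14 and 8.57 in the transgenic pool, against 7.22 and 6.22 in the wild-type pool, with both pools well above background on both arrays. The ratios of 1.92 and 2.34 averaged 2.13 ± 0.30, or 4.38-fold, at rank 24. The wild-type spot stood 33.5 units (array 1) and 49.0 units (array 2) over its local background, so this fold also depends on how background is treated. With processed signals the mean was 3.53, or 11.5-fold. Both genes are in wide use as markers of brown fat, and both were high in the transgenic pool on each array.

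Ppargc1a, the coactivator of mitochondrial gene programmes, differed less. Its brighter probe had log2 signals of 8.33 and 8.28 in the transgenic pool and 7.84 and 7.81 in the wild-type pool. The ratios of 0.49 and 0.47 averaged 0.48 ± 0.0084, or 1.39-fold, and its dimmer probe gave 0.59 ± 0.04, or 1.51-fold. The transgenic pool was the higher by both probes on both arrays, by less than the 2-fold that a call needs. Ppargc1a was the nearest of the detected genes to the threshold from outside and Cox7a1, at a mean of 1.53, the nearest from inside. With processed signals the 2 Ppargc1a probes parted, at 0.76 for the brighter and 1.32 for the dimmer, whose wild-type spot was well above background on 1 array.

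Elovl3, a fatty acid elongase that brown fat induces in the cold, was close to background in both pools. Its log2 signal was 6.46 and 6.38 in the transgenic pool, where array 1 alone measured it above background, against 6.17 and 6.14 in the wild-type pool, where neither array did. With 1 such measurement in all, no fold is given.

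The 3 genes that brown fat shares with muscle were all higher in the transgenic pool. Cox8b had log2 signals of 9.76 and 9.70 in the transgenic pool, against 7.22 and 6.52 in the wild-type pool. The ratios of 2.54 and 3.18 averaged 2.86 ± 0.46, or 7.27-fold, at rank 12. As for Ucp1, 1 of the 2 arrays measured the wild-type pool above background, and processed signals gave a larger ratio of 4.39, or 20.9-fold.

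Cox7a1 gave log2 signals of 9.69 and 9.42 in the transgenic pool, against 8.04 and 8.01 in the wild-type pool, a mean ratio of 1.53 ± 0.17 or 2.88-fold at rank 51. Fabp3 gave 9.03 and 9.20 in the transgenic pool, against 7.58 and 7.07 in the wild-type pool, a mean ratio of 1.79 ± 0.49 or 3.46-fold at rank 37. For both genes the wild-type pool was also well above background on both arrays. Under median centring in place of loess the Cox7a1 ratio on array 2 was 0.57, which lies just below 1.5-fold, and its call was lost, while the mean stayed at 1.57.

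**Figure D2:**
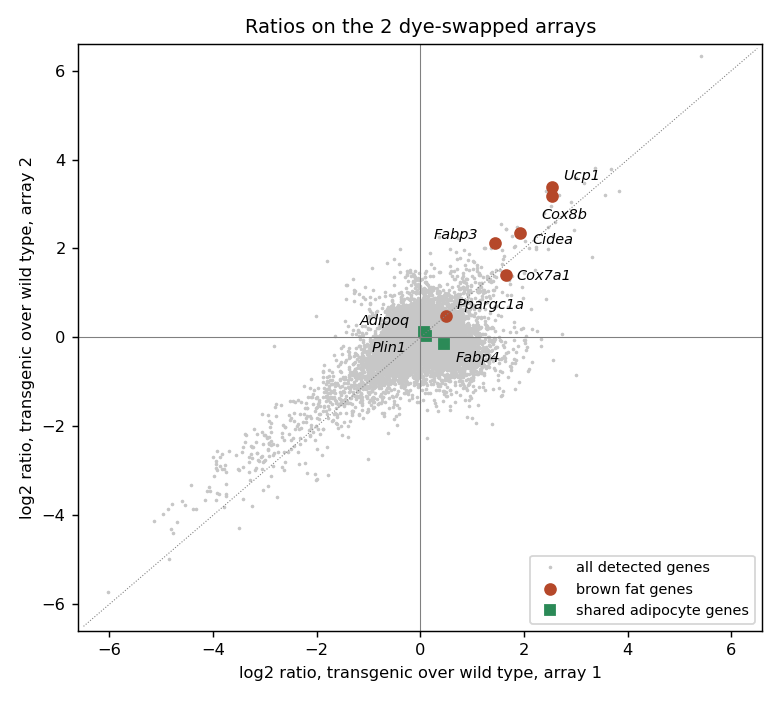
Log2 ratio of transgenic over wild type on array 1 (horizontal) against array 2 (vertical) for the 13933 detected genes (grey), with the 6 detected brown fat genes as red circles and the 3 general adipocyte genes as green squares. The dotted line marks equal ratios. Ucp1, Cox8b, Cidea, Fabp3 and Cox7a1 lie at 1.40 or more on both arrays, and Adipoq, Plin1 and Fabp4 lie between -0.15 and 0.46.

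The genes that all fat cells share differed little between the pools. Adipoq, which encodes the hormone adiponectin, had log2 signals of 10.73 and 10.82 in the transgenic pool and 10.66 and 10.70 in the wild-type pool, a ratio of 0.10 ± 0.03 or 1.07-fold. Plin1, the perilipin that coats the fat droplet, had 7.82 and 7.77 in the transgenic pool and 7.72 and 7.73 in the wild-type pool, a ratio of 0.07 ± 0.04 or 1.05-fold. Both pools carried these fat cell messages well above background on both arrays. In pooled tissue, fewer cells of a type and less RNA per cell cannot be told apart.

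Fabp4, the fatty acid carrier of fat cells, of capillary endothelium and of some macrophages, had log2 signals of 12.99 and 12.62 in the transgenic pool and 12.52 and 12.77 in the wild-type pool. The ratio was 0.46 on array 1 and -0.15 on array 2, a mean of 0.16 ± 0.43, so its direction was not settled by these arrays. Its other 2 probes also turned with the dye, at 1.17 and -0.58 for one and 1.27 and -0.36 for the other. Of the detected genes of capillary endothelium, 0 of 9 met the call rule in either direction, with a median of -0.21 and a summed linear signal of 2253 and 2238 in the transgenic pool against 3050 and 3221 in the wild-type pool. Of the macrophage genes, 7 of 11 were lower in the transgenic pool (Ctss, Lyz2, Aif1, Mpeg1, Adgre1, C1qc and C1qb) and none was higher, with a median of -1.38 and a summed signal of 4082 and 4437 in the transgenic pool against 12990 and 15097 in the wild-type pool. Over all detected genes 1.09% were higher and 3.52% were lower, shares at which a list of 9 genes may hold no call. The part of either cell type in the Fabp4 value was not tested.

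The 5 genes called higher and the 3 shared fat cell genes did not overlap on either array, which follows in part from taking the called genes alone. The lowest of the 5 had a ratio of 1.45 on array 1 and 1.40 on array 2, and the highest of the 3 shared genes 0.46 and 0.12, gaps of 0.98 and 1.28 on the log2 scale. The medians were 2.13 for the 5 and 0.10 for the 3. With every probe of each gene counted the gap on array 1 narrowed to 0.18, because of the dimmer Fabp4 probes, and on array 2 it stayed at 1.28. Ppargc1a, the detected brown fat gene left out of this gap, stood beside the shared genes on array 1, at 0.49 against 0.46 for Fabp4, and above them on array 2, at 0.47 against 0.12 for Adipoq. With every probe counted it overlapped them, since a dimmer Fabp4 probe reached 1.27 on array 1 against 0.49 and 0.62 for the Ppargc1a probes. The gap carries no test.

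The other brown fat genes had ratios closer to 0. Of 26 further brown fat genes, 25 had a probe and 16 were detected, and 0 of the 16 were called in either direction, a count that the shares over all detected genes (1.09% higher and 3.52% lower) also allow. Their median ratio was 0.16, in a range of -0.27 to 0.56, and 10 of 16 (62.5%) were above 0 on both arrays, beside 24.7% of all detected genes. Gpd2, which passes electrons from glycerol phosphate to the respiratory chain, stood highest at 0.56 ± 0.51, then S100b at 0.46 ± 0.18, Slc27a2, a fatty acid transporter, at 0.41 ± 0.15 and Acot2, a mitochondrial thioesterase, at 0.39 ± 0.02. Esrra, a nuclear receptor that works with the product of Ppargc1a, had 0.33 ± 0.20, and Ppara, a receptor for fatty acids, 0.09 ± 0.09.

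Several genes that define brown fat cells were not detected. Prdm16, Zic1 and Lhx8, transcription factors of the brown fat lineage, and Otop1, Bmp8b and Fgf21 did not pass the detection filter. Dio2, the deiodinase that makes active thyroid hormone in brown fat, was detected with log2 signals of 6.99 and 6.76 in the transgenic pool and 7.12 and 7.18 in the wild-type pool, a ratio of -0.27 ± 0.20. Ebf2, another factor of the lineage, had -0.09 ± 0.14. For Dio2 and Ebf2 alike, 1 of the 2 arrays measured the transgenic pool above background.

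**Figure D3:**
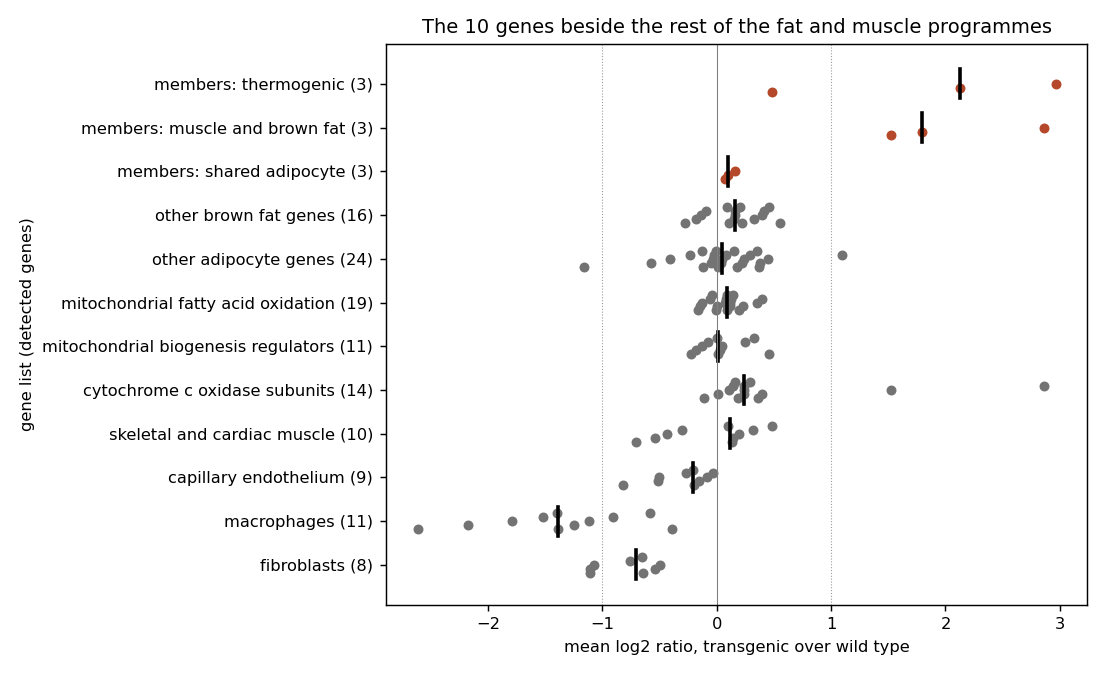
Mean log2 ratio of transgenic over wild type for each detected gene (points) of 12 gene lists, with the list's median as a black bar and the number of detected genes in brackets; dotted lines mark a ratio of 1 in size. The 3 rows of members (red) include the 5 called genes, while no other brown fat, fatty acid oxidation, mitochondrial biogenesis, muscle or endothelial gene lies past a dotted line.

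Other adipocyte genes also stood near 0. Of 29 further genes, 24 were detected, with a median ratio of 0.04 in a range of -1.16 to 1.10, and 1 was called higher and 1 lower. Over all detected genes 1.09% were higher and 3.52% were lower, and nothing is read from these 2 calls. Thrsp, which promotes fatty acid synthesis, had log2 signals of 9.47 and 9.04 in the transgenic pool and 8.26 and 8.04 in the wild-type pool, a ratio of 1.10 ± 0.15 or 2.14-fold. On array 2 alone its ratio was 0.99, under the threshold of 1. Mgll, which completes the breakdown of stored fat, was lower in the transgenic pool at -1.16 ± 0.13. The summed linear signal of the 24 genes was 38153 and 38064 in the transgenic pool, against 42547 and 39606 in the wild-type pool.

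Genes that mark other kinds of fat gave mixed values. Of 9 white fat genes 4 were detected, with a median of 0.47, and on both arrays 3 were above 0 and 1 was below. Retn and Cfd are also counted among the other adipocyte genes, so the lists are not separate. Nnat, an imprinted gene for a small membrane protein, was called higher at 1.07 ± 0.07, and Agt had 0.57 ± 0.08. Cfd, the fat cell protease adipsin, had -0.57 ± 0.09 and Retn, the hormone resistin, 0.37 ± 0.15. Of 9 beige fat genes 3 were detected and 0 were called, with a median of -0.28. Of 13 genes of adrenergic and cyclic AMP signalling 7 were detected and 0 were called, with a median of 0.20. With 1.09% of all detected genes higher and 3.52% lower, nothing is read from counts in lists this short.

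The detected paralogs of the members are given by protein family. Since the members were chosen on these ratios, a distance between a called gene and its paralogs is a description alone. Among the uncoupling proteins, Ucp2 had a ratio of -0.02 ± 0.52, Slc25a14 -0.08 ± 0.17 and Slc25a30 0.10 ± 0.30, and Ucp3 and Slc25a27 were not detected. Ucp1 was the one family member called.

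Of the 14 detected cytochrome c oxidase subunits, 2 were called higher, beside 1.09% of all detected genes, namely Cox8b and Cox7a1. Their counterparts in most other tissues were Cox8a, at 0.29 ± 0.24, and Cox7a2, at 0.16 ± 0.68, and Cox7a2l, a related factor that joins respiratory complexes, had 0.24 ± 0.20. The remaining 9 detected subunits had ratios of -0.11 (Cox7c) to 0.40 (Cox5a), and Cox6c among them turned with the dye, at 1.43 on array 1 and -0.70 on array 2. Cox6a2, the other subunit that heart and skeletal muscle share with brown fat, was well above background in each pool on 1 of the 2 arrays and so was not detected.

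Among the lipid droplet proteins, Cidea was the one called. Cidec, its fat cell paralog, had 0.08 ± 0.23, Plin2 0.18 ± 0.93, Plin3 0.15 ± 0.09 and Plin4 -0.24 ± 0.09. Plin5, the perilipin of tissues that burn fat, had 0.48 and 0.49 on the 2 arrays, a mean of 0.49 ± 0.0076 that falls short of a call. Of 9 fatty acid binding proteins with a probe, Fabp3 and Fabp4 were the ones detected. Among the elongases, Elovl1 had -0.21 ± 0.12, Elovl5 -0.06 ± 0.23 and Elovl7 0.59 ± 0.48.

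The wider programme of fat burning was read beside the shares of 1.09% higher and 3.52% lower over all detected genes, at which lists of this size may hold no call. Of 19 detected genes of mitochondrial fatty acid oxidation, 0 were called, and their ratios ran from -0.16 to 0.39 with a median of 0.09. Of 11 regulators of mitochondrial biogenesis, all detected, 0 were called, with a median of 0.01. These lists share genes with those above: Esrra, Ppargc1b and Acot2 with the other brown fat genes, and Acsl1 with the other adipocyte genes. Tfam, which packages mitochondrial DNA, had -0.08 ± 0.25 and Ppargc1b, the paralog of Ppargc1a, -0.18 ± 0.12. Twnk stood highest of the 11 at 0.45, and on both arrays 4 of the 11 were above 0 and 3 were below.

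Muscle markers were set beside Cox8b, Cox7a1 and Fabp3, since muscle also expresses these genes. Of 30 skeletal and cardiac muscle genes 10 were detected, with a median of 0.12 in a range of -0.71 to 0.49. Of the 10, 0 were called in either direction, which the shares over all detected genes (1.09% higher and 3.52% lower) also allow. On both arrays 2 of the 10 were above 0, Myh7 (0.49 ± 0.04) and Myh1 (0.13 ± 0.13), and 4 were below. Their summed linear signal was 4960 and 4614 in the transgenic pool, against 5874 and 5761 in the wild-type pool. Ckm, the muscle creatine kinase, Mb, the muscle oxygen carrier, and Atp2a1, the calcium pump of fast fibres, were not detected. Tnnc2, a fast-fibre troponin, had 1.02 on array 1 and -0.40 on array 2, and Acta1, the skeletal actin, had -0.43 ± 0.33.

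The tissue label was checked against 11 markers of luminal prostate epithelium, all of which were detected, with a median ratio of -0.0043. Pbsn, whose promoter the transgene borrows, had log2 signals of 15.40 and 15.78 in the transgenic pool and 15.73 and 15.41 in the wild-type pool. Spink1 (-5.88 ± 0.21) and Sbp (-1.35 ± 0.55), both secreted by the gland, were called lower, beside 3.52% of all detected genes. Epcam stood highest of the 11 at 0.90 ± 0.11, short of a call. On both arrays 4 of the 11 were above 0 and 3 were below. Of 8 fibroblast genes, Col3a1 (-1.11 ± 0.05) and Lum (-1.11 ± 0.10) were called lower, beside the same 3.52%, with a median of -0.70 over the list. The part of these shifts in the fat gene values was not tested.

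Over the ratios of the 2 arrays, the detected genes nearest to Ucp1 were Ang2, Cox8b and Fxyd4. Ang2, a secreted ribonuclease of the angiogenin family, had ratios of 2.42 and 3.28, a distance of 0.161 on the log2 scale. Cox8b lay at 0.196 and Fxyd4, which acts on the sodium pump, with ratios of 2.68 and 3.21, at 0.216. With 2 arrays of the same pools this likeness describes the size of the ratios alone, and it depends on the background offset where the wild-type signal is low. With processed signals the mean ratios of Ucp1 and Cox8b were 5.62 and 4.39.

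The size of the ratios depended on the processing more than their direction did. Over 9 settings that measured it, the Ucp1 ratio ran from 2.55 to 5.62 and that of Cox8b from 2.54 to 4.39. Over 11 settings Cidea ran from 1.92 to 3.53, Fabp3 from 1.45 to 2.51 and Cox7a1 from 1.38 to 1.90. Adipoq stayed between 0.02 and 0.19, Plin1 between 0.04 and 0.18 and Ppargc1a between 0.43 and 0.76. The Ppargc1a range leaves out its dimmer probe taken alone, which had a mean of 1.32 with processed signals. Fabp4, at -0.15 to 0.46, was the gene whose sign depended on the setting, where each array alone was read under normexp and loess only. With processed signals Adipoq also turned with the dye, at 0.16 on array 1 and -0.12 on array 2, as did Plin1, at 0.41 and -0.05. Under median centring the 3 shared fat cell genes ran from 0.72 to 1.71 on array 1 and from -1.02 to -0.56 on array 2. The authors' deposited table of the series has no value for Ucp1, Cox8b or Elovl3, and for Cidea, Cox7a1 and Fabp3 it gave mean log2 ratios of 3.53, 1.90 and 2.51.

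**Figure D4:**
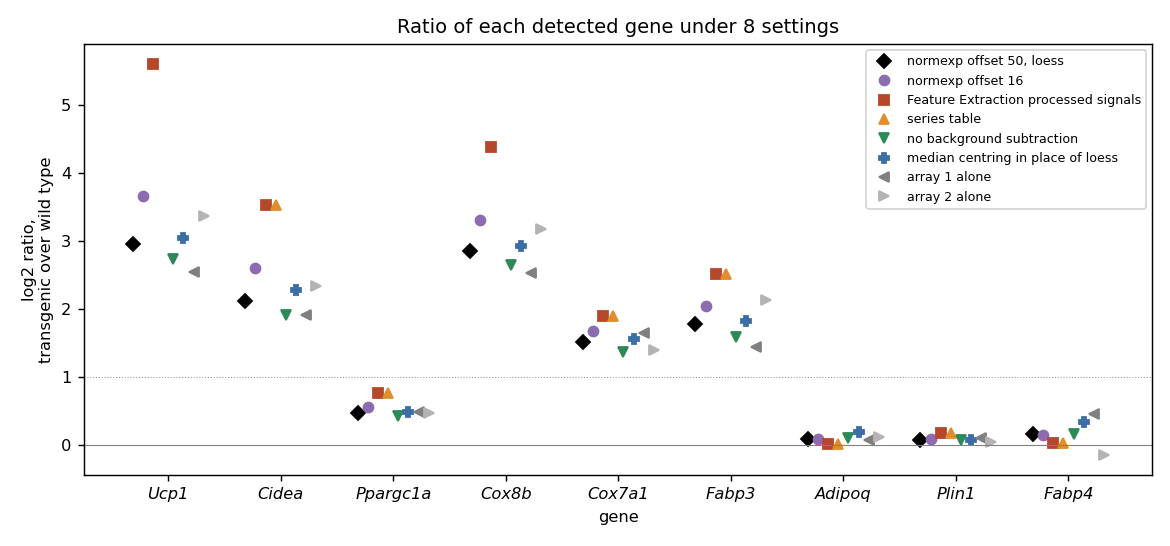
Log2 ratio of transgenic over wild type for the 9 detected genes (horizontal) under 8 settings (symbols), with the dotted line at a ratio of 1. Each gene is shown by its brightest measured probe alone. Ucp1, Cidea, Cox8b, Cox7a1 and Fabp3 lie above the line under each setting that measures them, highest with Feature Extraction's processed signals and, where it holds them, in the series table, and Ppargc1a, Adipoq, Plin1 and Fabp4 lie below it.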

How the data were processed

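Labelling started from 100 ng of RNA of each pool, per the labels, and each pool was read on 2 two-colour Agilent arrays. Spots were read with Feature Extraction 11.0.1.1, per the file headers, and the array annotation is of build mm9. The deposited scanner files give each spot's intensity and local background per dye as median pixel values, flags for spots well above background, and intensities that Feature Extraction background-subtracted and dye-normalized. The authors' deposited series table holds log2 values. With each ratio running transgenic over wild type, its columns and the log2 ratios of the processed intensities correlated at r = 1.0 over 15474 probes, with medians of 0 and constants of -0.14 (array 1) and 0.14 (array 2). The sources used here do not give its filter. Per the file headers, the scanner files also hold a log10 ratio of red over green, which was not used.

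The median signals were background-corrected by normexp (offset 50) and loess-normalized array by array, with control and outlier spots at weight 0 (limma 3.58.1, R 4.3.3). Signals per pool were then scaled between arrays (Aquantile). Ratios were oriented by the labels' dyes, transgenic over wild type, and averaged over the 2 arrays, which cancels a dye effect. The brightest detected probe stood for its gene. Names came from RefSeq accessions, which 27816 of 41174 probes matched. No significance test was possible with 1 pool per genotype.

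The members and gene lists were chosen with earlier results of these data known. The genes named are the 10 members by all their probes, the called genes of each list, the detected paralogs of the members, the 3 genes nearest to Ucp1 by Euclidean distance over both ratios, and further examples chosen after their values were seen. Alternatives were processed signals, the series table, median centring, no background subtraction, an offset of 16, other detection filters, the mean of probes, each array alone and a 1.5-fold rule.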

Additional observations from a re-analysis of the deposited data

How the results depend on the processing

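Of the 10 genes, the same 5 were called higher under 8 of 11 settings changed from the reported one. Among these 8, the mean of probes and the lack of a filter on dim probes could not lose a call. Each of the 5 genes has 1 probe, so its ratio there was the reported one. The 1.5-fold rule is laxer than the reported rule and could not lose a call either. Median centring called 4 and lost Cox7a1. The series table and detection required in both pools each called 3, and neither measured Ucp1 or Cox8b. Of the other brown fat genes, 1 was called with processed signals (S100b). Of the other adipocyte genes, 0 were called under median centring and 0 to 1 with 1 array left out, Thrsp being lost on array 2 alone. Of the muscle genes, 0 to 1 were called with 1 array left out, Tnnc2 on array 1 alone. Over all genes, 152 were higher and 490 lower as reported, 274 and 991 with processed signals, 99 and 404 under median centring, 475 and 1077 under the 1.5-fold rule, and 272 to 451 were higher with 1 array left out. The share of calls that were higher was 23.7% as reported and 43.0% on array 1 alone. None of the 5 genes called higher among the 10 changed sign under a setting that measured it. Signal over background limits the folds of Ucp1, Cox8b and Cidea. No paired analysis was possible because each genotype has 1 pool.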
